A study of Mus musculus with 14 samples.

Results

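The genes described here encode 4 subunits of the AMPA receptor, Gria1, Gria2, Gria3 and Gria4, and 4 proteins that bind to it, the TARPs Cacng2, Cacng3 and Cacng8 and the cornichon Cnih2. They were chosen by gene symbol as 8 of the 22485 symbols in the deposited gene table. All 8 were present, each under 1 gene identifier, and all 8 passed the filter on low counts that left 13063 genes for testing. RNA was measured by sequencing in 14 libraries of mouse hippocampus, strain C57BL/6 and wild type in the authors' sample table. Tissue came from the pyramidal fields CA1 and CA3 and from the dentate gyrus (DG). Dissociated tissue stood for 75 min in artificial cerebrospinal fluid (aCSF) holding 1 mg/ml pronase, a protease mixture, and was then vortexed, centrifuged and triturated in aCSF with 1% FBS. Control tissue was homogenised with no enzyme, and both kinds of tissue went into the same RNA isolation kit. CA1 had 3 dissociated libraries (replicates 1, 2 and 3) and 3 control libraries with the same numbers. CA3 had 2 dissociated and 2 control libraries (replicates 1 and 4 of each), and DG had 2 dissociated libraries (replicates 3 and 4) and 2 control libraries (replicates 2 and 3). The sample table lists 1 mouse, 1 job and 1 date for all 14, so the p-values reflect variation among pieces of tissue from 1 animal, and there was no batch to split by. The study asked how enzymatic dissociation, a step used to free single cells, alters the RNA profile of hippocampal tissue.

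AMPA receptors are tetrameric cation channels opened by glutamate, and they carry most fast excitatory transmission in the hippocampus. Gria2 encodes the subunit that, after RNA editing, makes the channel nearly impermeable to calcium. TARPs and cornichons bind the assembled channel, help it leave the endoplasmic reticulum and reach synapses, and slow its closing. Each subunit gene also holds a pair of alternative exons, flip and flop, of which a mature coding transcript keeps 1, and this choice alters how fast the channel desensitises.

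The flip and flop exons of Gria1 and Gria2 are shown because transcripts are sorted by them further on. Those transcripts also differ at bases outside these exons, so their values do not rest on the exons alone. Gria1 (ENSMUSG00000020524) lies on the plus strand of chromosome 11 at 57011387 to 57330244 of GRCm38, with flop at chr11:57309769-57309883 upstream of flip at chr11:57310608-57310722. Gria2 (ENSMUSG00000033981) lies on the minus strand of chromosome 3 at 80681450 to 80802835, with flop at chr3:80691320-80691434 and flip at chr3:80690404-80690518. All are coding exons of 115 bases, written 5′ to 3′ on the strand of the gene, and capitals mark the bases that differ between flip and flop of the same gene.

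Gria1 flip: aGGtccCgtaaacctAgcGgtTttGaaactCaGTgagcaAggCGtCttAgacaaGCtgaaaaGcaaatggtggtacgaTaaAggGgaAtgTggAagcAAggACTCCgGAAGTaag
Gria1 flop: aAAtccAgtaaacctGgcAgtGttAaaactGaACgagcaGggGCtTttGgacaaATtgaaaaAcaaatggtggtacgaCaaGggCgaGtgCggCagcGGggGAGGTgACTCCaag
Gria2 flip: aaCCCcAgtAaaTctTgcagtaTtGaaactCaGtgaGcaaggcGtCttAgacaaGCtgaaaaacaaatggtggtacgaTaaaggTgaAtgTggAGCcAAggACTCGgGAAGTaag
Gria2 flop: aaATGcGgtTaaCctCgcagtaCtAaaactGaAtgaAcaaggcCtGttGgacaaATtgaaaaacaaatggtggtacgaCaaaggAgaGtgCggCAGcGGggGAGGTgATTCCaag

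In both genes 36 of 115 bases differed, an identity of 68.7%. Flip and flop differed at 32 bases in Gria3 (identity 72.2%) and at 31 in Gria4 (identity 73.0%), and flop came first in the order of exons in all 4 genes. The other members lie in GRCm38 on chromosome X at 41400854 to 41678601 (Gria3, plus strand), chromosome 9 at 4417896 to 4796234 (Gria4, minus strand), chromosome 15 at 77991748 to 78120028 (Cacng2, minus strand), chromosome 7 at 122670492 to 122769393 (Cacng3, plus strand) and 3390683 to 3415648 (Cacng8, plus strand), and chromosome 19 at 5092868 to 5098521 (Cnih2, minus strand). Coordinates are those of GENCODE M21, matched by gene identifier.

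Library depth ran from 65887 to 4782767 estimated counts in dissociated libraries and from 1285654 to 6646655 in control libraries. Dissociated CA1 replicates 2 and 3 and dissociated DG replicate 3 held 135065, 300812 and 65887 counts, each under 500000. Levels below are CPM, counts relative to a common library total after scaling of the library sizes by TMM. Summed CPM of markers of CA1 pyramidal cells, CA3 pyramidal cells and granule cells were compared within each library, and in 5 of 14 the largest sum belonged to a region other than the labelled one. The library labelled dissociated CA1 replicate 3 had sums of 151 (CA1 markers) and 586 (CA3 markers). The library labelled dissociated CA3 replicate 1 had 1610 for CA1 markers and 108 for CA3 markers, against 2050 and 73.1 in the one labelled control CA3 replicate 1 and 778 and 468 in control CA3 replicate 4. The library labelled control DG replicate 2 had 449 for granule cell markers and 531 for CA3 markers. Granule cell markers otherwise followed the labels, with 5 of 6 called lower in CA1 than in DG and 5 of 6 called lower in CA3 than in DG, while none of the 9 tested CA1 or CA3 pyramidal markers was called between CA1 and CA3 by edgeR, DESeq2 or limma (adjusted p under 0.05). At an unadjusted p under 0.05 edgeR gave 2 CA1 and 3 CA3 markers. Of 4 libraries labelled CA3, dissociated CA3 replicate 4 was the only one led by CA3 markers. The 3 lists differ in level, with highest sums of 2720 (CA1), 871 (CA3) and 1520 CPM (granule cell). Comparing sums can thus favour the CA1 list. In control CA3 replicate 4, led by CA1 markers, the CA3 sum lay above the 42.4 to 55.3 of control CA1 libraries. Its CA1 sum lay below their 2200 to 2720. Dissociated DG replicate 3, the shallowest library, was counted with its label at sums of 405 (granule cell) and 358 (CA1).

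**Figure D1:**
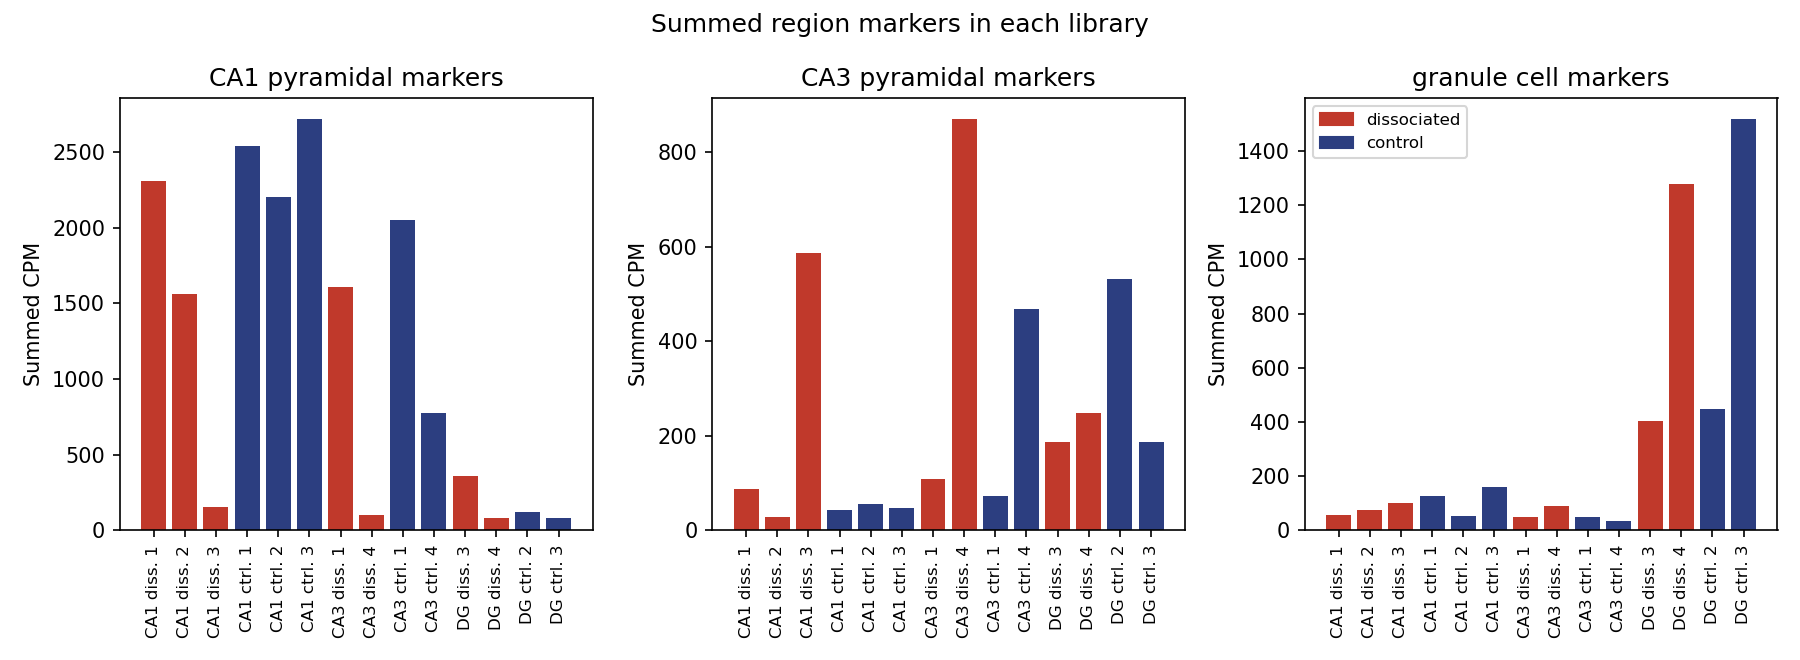
Summed CPM of 5 CA1 pyramidal, 5 CA3 pyramidal and 6 granule cell markers (y axis of each panel) in each of the 14 libraries (x axis), with dissociated libraries in red and control libraries in blue. CA1 markers are high in the libraries labelled dissociated and control CA3 replicate 1 (1610 and 2050 CPM), and low in dissociated CA1 replicate 3 (151 CPM).

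Within libraries, levels of different genes were compared as TPM, which corrects for transcript length. Cnih2, a cornichon that promotes export of the receptor, had the highest median TPM of the 8 genes, 779.7 in dissociated and 1066 in control libraries. Gria1 followed with 369 in dissociated and 669.8 in control libraries. Gria2 had median TPM of 185 and Cacng8, the TARP typical of hippocampus, 239 in dissociated libraries, against 496 for Gria2 and 475 for Cacng8 in control libraries. The ranges of Gria2 and Cacng8 overlapped in both treatments, so their order is within the spread. Gria3 had medians of 65.0 and 152 TPM, and Cacng3, a TARP of forebrain, 54.6 and 67.0 TPM in dissociated and control libraries. Cacng2, the founding TARP known as stargazin, had 24.9 and 22.1 TPM, and Gria4 12.5 and 21.8 TPM in dissociated and control libraries, with overlapping ranges. The TPM medians are not read as treatment differences, since the median difference of all tested genes was −0.64 on the log2(TPM + 1) scale, against −0.11 for TMM-scaled counts.

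Gria1 and Gria2 together made up most of the subunit pool in every library. Gria1 supplied 44.4 to 59.6% of the summed TPM of the 4 subunits in dissociated libraries and 47.6 to 55.8% in control libraries. Gria2 supplied 26.3 to 47.9% in dissociated and 31.0 to 43.0% in control libraries, and Gria3 7.21 to 13.1% and 8.71 to 12.8%. Gria4 supplied at most 5.64% in dissociated and 3.44% in control libraries. Within the 3 TARPs, Cacng8 made up 65.8 to 92.9% of the summed TPM in dissociated libraries and 73.0 to 86.8% in control libraries. Over the 3 regions, these shares overlapped between treatments for every one of the 7 genes. Within CA1, Gria1 supplied 53.93 to 58.23% in dissociated libraries, without overlap with the 48.29 to 53.0% in control libraries. Gria3 in CA1 was lower without overlap, at 7.21 to 11.7% in dissociated and 11.77 to 12.75% in control libraries. So was Cacng8 in CA3, at 69.73 to 81.28% and 84.59 to 85.46%. The treatments overlapped for every other gene and region, and the shares were not tested. Gene totals here include transcripts annotated for nonsense-mediated decay, with means of 27.5% of Gria2 TPM and 53.4% of Gria3 TPM. Shares of coding transcripts alone are not given here.

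The first comparison asked whether the 8 transcripts differed between dissociated and control tissue. The 4 subunits, Cacng8 and Cacng3 had lower mean CPM in dissociated than in control libraries, with the lowest fitted fold change for Gria2, while Cnih2 and Cacng2 had slightly higher means in dissociated libraries. None of the 8 was called at an adjusted p under 0.05 in edgeR's quasi-likelihood test, where 0.773% of all 13063 genes were called and 0.0459% were called lower. At an unadjusted p under 0.05 there were 4 of 8, namely Gria1, Gria2, Gria3 and Cacng8, all lower in dissociated tissue. At that threshold edgeR had 1625 of all 13063 genes, in either direction. DESeq2 called 1, Gria2, and limma on log2(TPM + 1) called 0. Over all 13063 genes DESeq2 called 478 and limma 55, against 101 by edgeR. In bulk tissue, fewer cells of a type and less RNA per cell cannot be told apart.

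Gria2 had 763, 525 and 583 CPM in dissociated CA1 libraries (replicates 1, 2 and 3), against 1347, 1130.4 and 1189 CPM in control CA1 libraries. In CA3 it had 603 and 448 CPM in dissociated and 1159 and 630.4 CPM in control libraries. In DG it had 514 and 663 CPM in dissociated and 665 and 1019 CPM in control libraries. Every dissociated library was thus below every control library of its own region, though in DG the nearest pair differed by little. The same held for Gria2 without TMM scaling. Among all tested genes, 1.34% were lower in dissociated tissue without overlap in all 3 regions, and Gria2 was the only one of the 8. The fitted log2 fold change was −0.78 ± 0.19 (SE, 95% interval −1.18 to −0.38, edgeR adjusted p = 0.0619). Set against the summed counts of 14 pan-neuronal genes, Gria2 remained separated in CA1 only, at 50.2 to 78.7 counts per 1000 pan-neuronal counts in dissociated and 104 to 125 in control libraries. On that scale Gria1, Gria3 and Cacng8 were also lower without overlap in CA1, and Cnih2 was higher without overlap in CA3. The share of all genes on that scale was not computed.

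Gria1, which encodes the subunit most tied to activity-dependent insertion of receptors, had 1318, 1166 and 1004 CPM in dissociated CA1 libraries, against 1864, 1639 and 2018 CPM in control CA1 libraries. In CA3 it had 1375 and 706 CPM in dissociated and 1862 and 1161 CPM in control libraries, and in DG 467 and 955 CPM in dissociated and 982 and 1161 CPM in control libraries. Dissociated and control libraries were apart in CA1 and DG and overlapped in CA3. The log2 fold change over the 3 regions was −0.59 ± 0.20 (SE, 95% interval −1 to −0.18, edgeR adjusted p = 0.202).

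Gria3, the subunit that pairs chiefly with Gria2, had 271, 184 and 125 CPM in dissociated CA1 libraries, against 420.0, 367 and 400.4 CPM in control CA1 libraries. It had 208 and 78.8 CPM in dissociated CA3 and 309.7 and 193 CPM in control CA3, and 77.8 and 247 CPM in dissociated DG and 212 and 194 CPM in control DG. The libraries were apart in CA1 only, where the lowest of all CA1 values came from the library led by CA3 markers. The log2 fold change was −0.71 ± 0.26 (SE, 95% interval −1.24 to −0.17, edgeR adjusted p = 0.256). Gria4, the rarest subunit, ranged from 0 to 61.4 CPM in dissociated and from 16.3 to 65.8 CPM in control libraries, with a log2 fold change of −0.60 ± 0.38 (SE, edgeR adjusted p = 0.543). Its count of 0 in dissociated DG replicate 3 allows up to 3 counts, which is 45.5 CPM there, so a difference in that library was not detectable at this depth.

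Cacng8 had 329.5, 232 and 326 CPM in dissociated CA1 libraries, against 437, 372 and 477 CPM in control CA1 libraries. It had 322 and 152 CPM in dissociated CA3 and 404 and 303 CPM in control CA3, and 171 and 158 CPM in dissociated DG and 231 and 179 CPM in control DG. As with Gria1, the libraries were apart in CA1 and DG and overlapped in CA3. The log2 fold change was −0.49 ± 0.20 (SE, 95% interval −0.90 to −0.07, edgeR adjusted p = 0.32). Cacng3 ranged from 15.6 to 89.7 CPM in dissociated and from 40.3 to 88.7 CPM in control libraries (log2 fold change −0.18 ± 0.29 SE, 95% interval −0.78 to 0.41, edgeR adjusted p = 0.843). Cacng2 ranged from 15.6 to 169.7 CPM in dissociated and from 31.6 to 118 CPM in control libraries, with a log2 fold change of 0.43 ± 0.36 (SE, 95% interval −0.31 to 1.17, edgeR adjusted p = 0.66). The treatments overlapped in each region for Cacng2 and for Cacng3.

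Cnih2 had 1036, 846 and 362 CPM in dissociated CA1 libraries, against 595, 550.1 and 523 CPM in control CA1 libraries. In CA3 it had 510.1 and 657 CPM in dissociated and 472 and 591 CPM in control libraries, and in DG 311 and 335 CPM in dissociated and 403 and 334 CPM in control libraries. Its spread was widest in dissociated CA1, where the value of 362 CPM belongs to the library led by CA3 markers and the other 2 lie above all controls. The log2 fold change was 0.18 ± 0.21 (SE, 95% interval −0.25 to 0.62, edgeR adjusted p = 0.768). On the log2(TPM + 1) scale, where the median of all genes was −0.64, Cnih2 and Cacng2 were at −0.23 and −0.21, both above that median as they are in CPM.

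**Figure D2:**
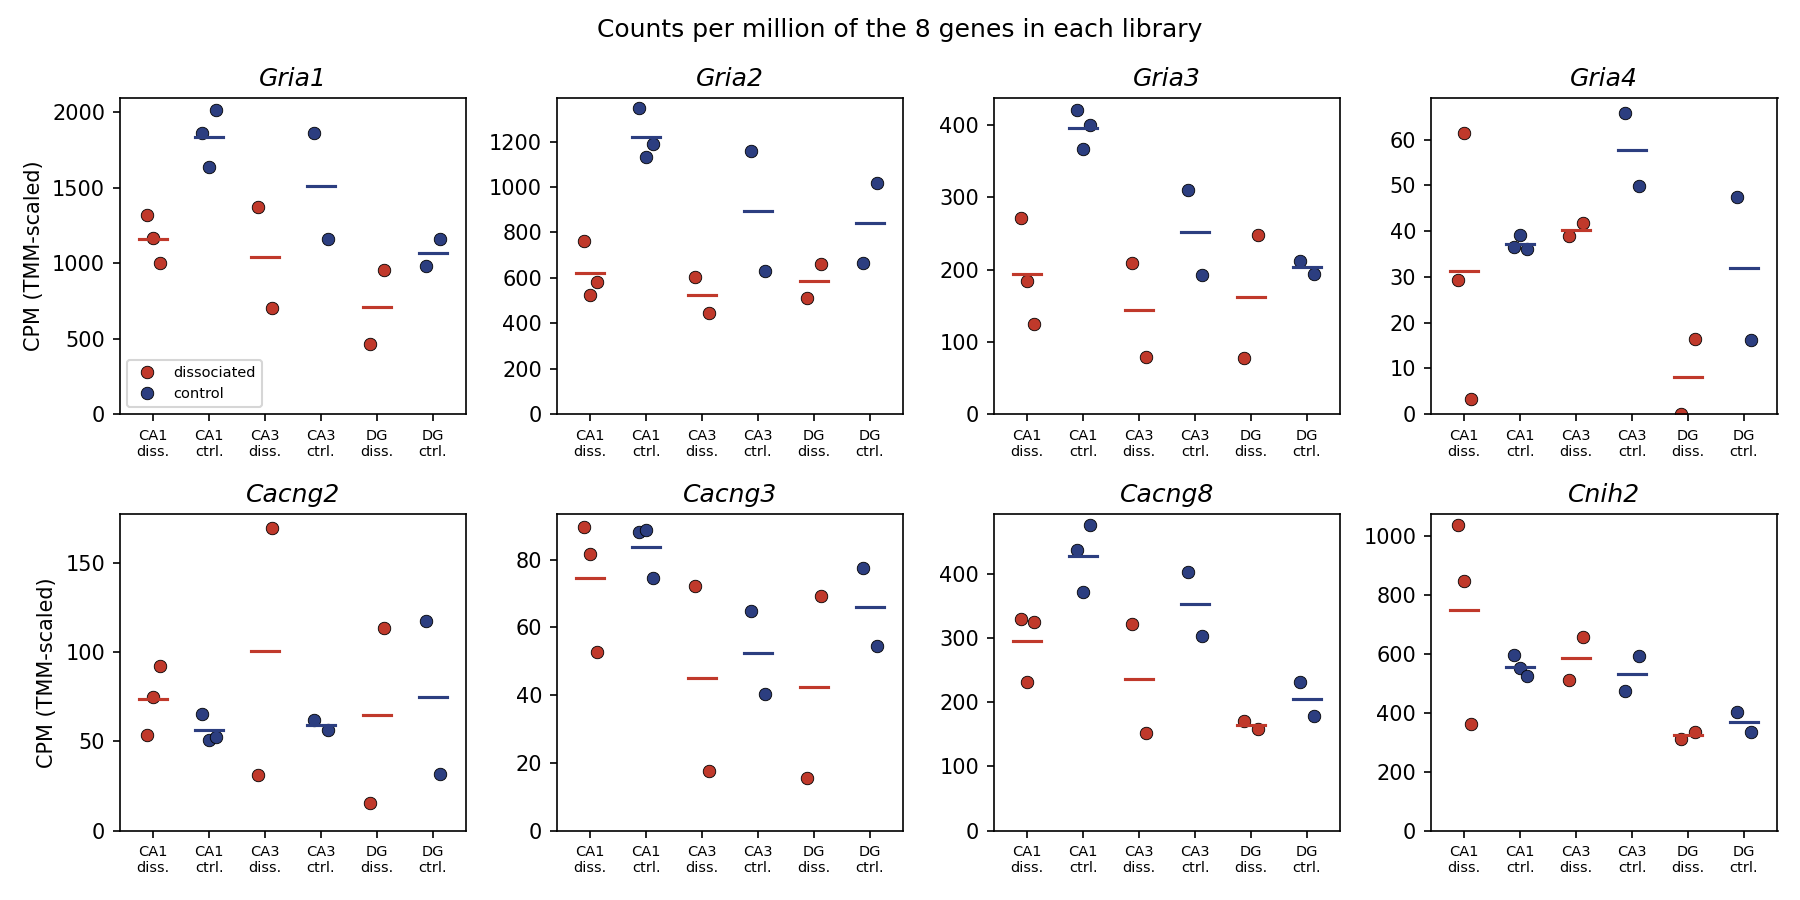
CPM of each of the 8 genes (1 panel per gene, y axis from 0) in each library, by region and treatment on the x axis, with dissociated libraries in red left of control libraries in blue; horizontal lines are group means of 3 (CA1) or 2 (CA3, DG) libraries. Gria2 is lower in every dissociated library than in the control libraries of the same region, while Cacng2 and Cacng3 overlap in all 3 regions.

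As a list, 6 of the 8 genes had negative and 2 positive fold changes, with a median log2 fold change of −0.54, beside a median of −0.11 over all 13063 genes. Without the 5 libraries led by another region's markers the median of the 8 was −0.21, beside −0.12 over all genes. With pan-neuronal scaling it was −0.34 beside 0.07, and on the log2(TPM + 1) scale −0.99 beside −0.64. Markers of other cell types were read in the same comparison, where 1625 of 13063 genes had an unadjusted p under 0.05 in edgeR. DESeq2 called 478 of all genes there. At an adjusted p under 0.05 edgeR called 95 of 13063 genes higher (0.727%), and limma on log2(TPM + 1) called 7 higher. Without the 5 libraries led by another region's markers edgeR called 15 of 13565 genes higher. Of 10 oligodendrocyte markers 8 were called higher in dissociated tissue by edgeR (0 by limma on log2(TPM + 1), and 2 without the 5 libraries led by another region's markers), with summed levels of 1360 to 12300 CPM in dissociated and 596 to 3760 CPM in control libraries. Of 10 microglial markers 6 were called higher (4 by limma, and 3 without those 5 libraries), with sums of 460 to 1860 CPM in dissociated and 232 to 425 CPM in control libraries. Of 6 oligodendrocyte precursor markers 4 were called higher (0 by limma, and 1 without those libraries; sums of 307 to 927 and 114 to 359 CPM in dissociated and control libraries). None of 14 pan-neuronal genes was called by edgeR or DESeq2, 2 had an unadjusted p under 0.05 in edgeR, and limma called 1 lower (median log2 fold change −0.16, sums of 5200 to 12100 CPM in dissociated and 6980 to 13300 CPM in control libraries), and none of 8 excitatory neuron markers was called by the 3 tools or had an unadjusted p under 0.05 in edgeR (median −0.28, sums of 3600 to 11100 CPM in dissociated and 6050 to 8030 CPM in control libraries). Of 8 astrocyte markers none was called by edgeR or limma and 1 was called higher by DESeq2, 5 had an unadjusted p under 0.05 in edgeR, and the median was 0.63, with sums of 1950 to 6900 CPM in dissociated and 2110 to 3440 CPM in control libraries. CA1 pyramidal markers, 5 in all, had a median log2 fold change of −0.85 and sums of 80.8 to 2310 CPM (median 358) in dissociated libraries, against 83 to 2720 CPM (median 2050) in control libraries. CA3 pyramidal markers had a median of 1.1 over the 4 tested and sums of 27.3 to 871 CPM (median 187) in dissociated libraries, against 42.4 to 531 CPM (median 73.1) in control libraries. None of these 9 pyramidal markers was called by the 3 tools, and 1 of each list had an unadjusted p under 0.05 in edgeR. Inhibitory neuron, endothelial and granule cell markers had no call by the 3 tools, 0, 0 and 1 with an unadjusted p under 0.05 in edgeR, and medians of −0.34, 0.46 and −0.12. No marker in these lists was at 0 in all libraries. Scaled to the pan-neuronal genes in place of TMM, the fold changes were −0.60 for Gria2, −0.40 for Gria1, −0.52 for Gria3 and −0.28 for Cacng8, with edgeR adjusted p from 0.314 to 0.766. Beyond that scaling, the part of these cell types in the values of the 8 genes was not tested.

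The fold of Gria2 kept its sign in every alternative run, and its call did not. Gria2 was called lower when no filter was applied (−0.76, edgeR adjusted p = 0.0164), with DESeq2 (−0.66, DESeq2 adjusted p = 0.0123), without dissociated DG replicate 4 (−0.86, edgeR adjusted p = 0.0232) and without control DG replicate 2 (−0.85, edgeR adjusted p = 0.0278). Without the 3 dissociated libraries under 500000 counts it was −0.60 ± 0.21 (SE, edgeR adjusted p = 0.315). Without the 5 libraries led by another region's markers it was −0.83 ± 0.25 (SE, edgeR adjusted p = 0.248), with Gria1 at −0.57, Gria3 at −0.48, Cacng8 at −0.40 and Cnih2 at 0.51.

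The second comparison asked for the treatment difference within each region and whether it differed between regions. In CA1 the dissociated libraries lay below the control libraries without overlap for 4 of 8 genes, Gria1, Gria2, Gria3 and Cacng8, where 16% of all tested genes did so. In CA3 this held for Gria2 and Gria4 (18.2% of all tested genes) and in DG for Gria1, Gria2 and Cacng8 (32.2% of all tested genes). None of the 8 was called by edgeR in CA1, where 0.191% of all genes were called, in CA3, where 0% were, or in DG, where 0.161% were. At an unadjusted p under 0.05 in edgeR there were 2 in CA1 (Gria2 and Gria3), 1 in CA3 (Gria2) and 0 in DG. Counted from the lowest p among all 13063 genes, Gria2 ranked 246 and Gria3 758 in CA1. Gria1 in CA1, just above the threshold (edgeR unadjusted p = 0.0503), ranked 1472. Gria2 in CA3 (edgeR unadjusted p = 0.048) ranked 504. DESeq2 and limma on log2(TPM + 1) called 0 in each region. Gria2 had log2 fold changes of −0.96 ± 0.30 in CA1, −0.77 ± 0.36 in CA3 and −0.50 ± 0.37 in DG (SE, edgeR adjusted p = 0.241, 1 and 0.55). Those of Gria1 lay within −0.66 and −0.54 in the 3 regions. Gria3 had −1 ± 0.40 in CA1 and −0.13 ± 0.50 in DG (SE), and Cnih2 0.43 ± 0.32 in CA1 and −0.18 ± 0.41 in DG (SE). In CA1, CA3 and DG in turn, the log2 fold changes were −0.42, −0.52 and −1.16 for Gria4 and −0.52, −0.57 and −0.33 for Cacng8. In the same order they were 0.34, 0.74 and 0.21 for Cacng2, and −0.14, −0.18 and −0.24 for Cacng3. The interaction of treatment with region was called for none of the 8 genes and for 0% of all tested genes, with adjusted p of 0.846 to 0.999 for the 8, none with an unadjusted p under 0.05, and no call with DESeq2 or limma. With 2 or 3 libraries per group, a miss of this kind does not show that the regions responded alike.

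**Figure D3:**
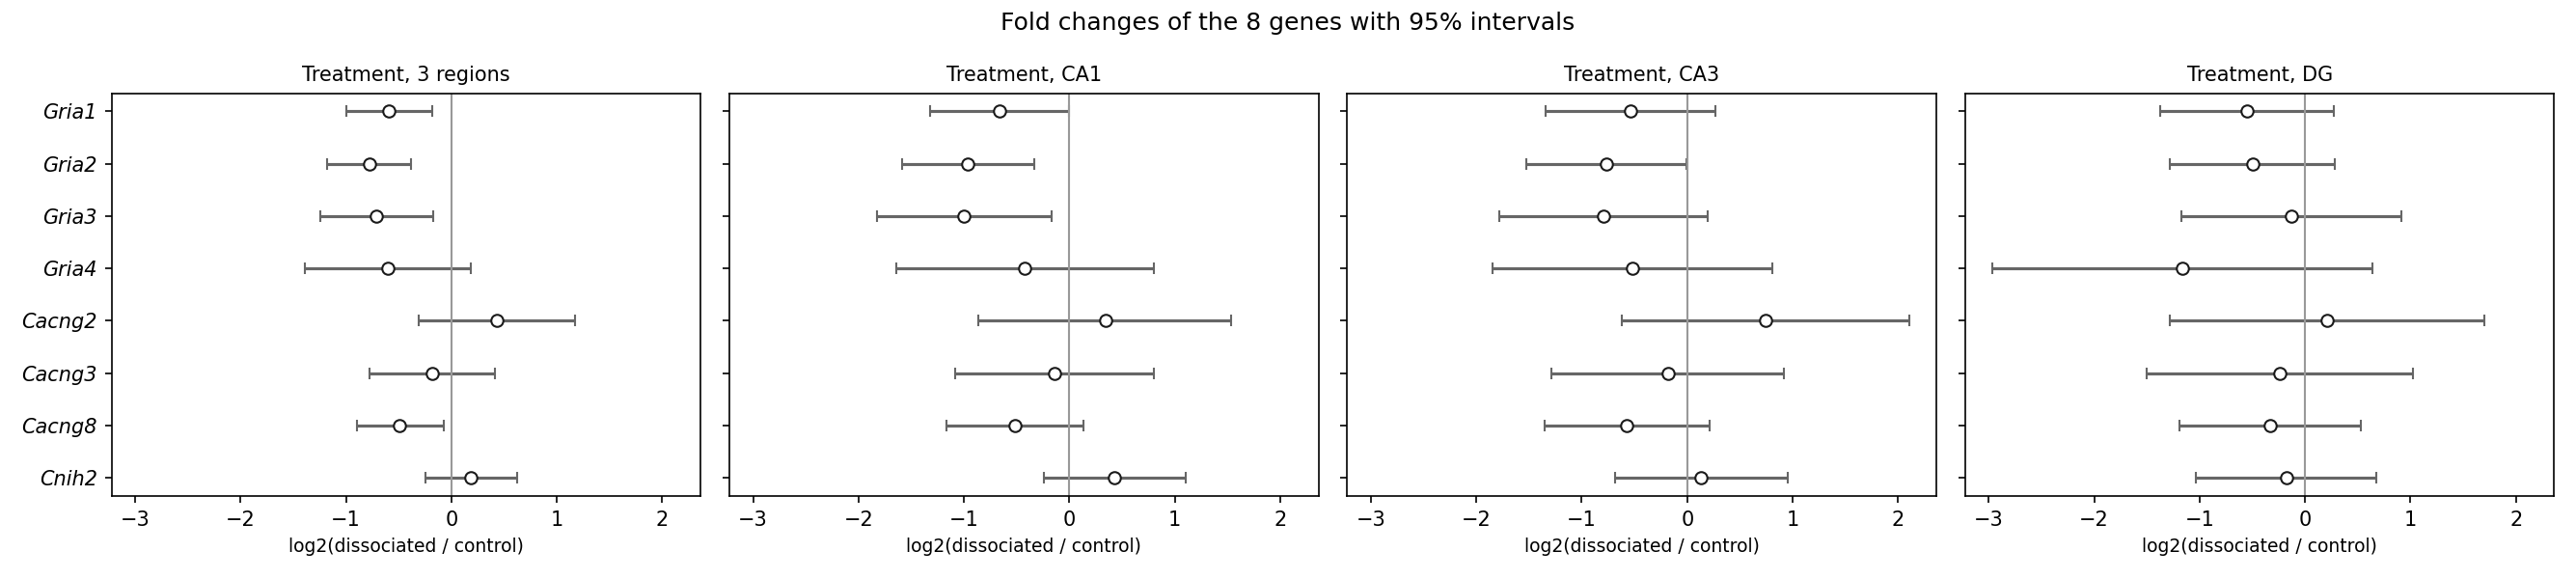
Log2 fold changes of dissociated over control tissue (x axis) for the 8 genes (rows), over the 3 regions and within CA1, CA3 and DG; bars are 95% intervals from edgeR and open circles are genes not called at an adjusted p under 0.05. All circles are open, and Gria2 has the fold furthest below 0 over the 3 regions (−0.78).

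The third comparison asked whether the 8 transcripts differ between hippocampal regions, with treatment in the model. Cacng8 was higher in CA1 than in DG, and Cnih2 and Gria1 leaned the same way without passing the test. Cacng8 had 232 to 477 CPM with a median of 351 in 6 CA1 libraries, against 171, 158, 231 and 179 CPM in 4 DG libraries. The lowest CA1 value, 231.9 CPM, lay just above the highest DG value, 231.0 CPM. Its log2 fold change was 0.98 ± 0.25 (SE, 95% interval 0.46 to 1.51, edgeR adjusted p = 0.0271). It was 1 of 8 members called between CA1 and DG, where 4.06% of all tested genes were called and 1.98% were called higher in CA1.

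Cnih2 had 362 to 1036 CPM with a median of 572 in CA1, against 311, 335, 403 and 334 CPM in DG, with 1 CA1 library within the DG range. Its log2 fold change was 0.88 ± 0.26 (SE, 95% interval 0.33 to 1.42, edgeR adjusted p = 0.0619). Gria1 had 1004 to 2018 CPM in CA1, against 467, 955, 982 and 1161 CPM in DG, with a log2 fold change of 0.73 ± 0.25 (SE, 95% interval 0.22 to 1.23, edgeR adjusted p = 0.108). Of the others, Gria2 (0.31), Gria3 (0.56), Gria4 (0.50) and Cacng3 (0.40) had positive and Cacng2 (−0.33) a negative log2 fold change, with adjusted p from 0.441 to 0.787. The median over the 8 genes was 0.53, beside −0.04 over all genes, and 14 pan-neuronal genes had a median of 0.52, with 2 called higher in CA1. Scaled to the pan-neuronal genes, which moved the median of all genes to −0.50 and that of the 8 to 0.15, Cacng8 was at 0.50 in CA1 against DG (edgeR adjusted p = 0.301), Cnih2 at 0.42 and Gria1 at 0.23.

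The call of Cacng8 moved with the libraries used. It was made in 9 of 14 fits that left out 1 library, with log2 fold changes of 0.91 to 1.13. The call was lost without control CA1 replicate 1, 2 or 3 (edgeR adjusted p = 0.0651, 0.0505 and 0.0747), without dissociated DG replicate 4 (0.0518) and without control DG replicate 3 (0.156). In control libraries only it was 1.14 (edgeR adjusted p = 0.0252), and without the 3 shallow dissociated libraries 1.17 (edgeR adjusted p = 0.0155). Without the 5 libraries led by another region's markers Cacng8 was at 1.15 ± 0.29 (SE, edgeR adjusted p = 0.0191), and Cnih2 was called as well, at 1.26 ± 0.27 (SE, edgeR adjusted p = 0.00525). Cnih2 was also called without dissociated CA1 replicate 3 (0.99, edgeR adjusted p = 0.0125) and without control DG replicate 2 (1.10, edgeR adjusted p = 0.0246). Gria1 was called without dissociated DG replicate 4 (0.95, edgeR adjusted p = 0.0492). DESeq2 called 3 of the 8, Cacng8, Cnih2 and Gria1, while limma on log2(TPM + 1) called 0. Over all 13063 genes DESeq2 called 998 and limma 164, against 530 by edgeR.

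Between CA3 and DG none of the 8 was called by edgeR, DESeq2 or limma, where edgeR called 1.78% of all tested genes. In edgeR 1572 of 13063 genes had an unadjusted p under 0.05. At an unadjusted p under 0.05 there were 3, Gria4 (log2 fold change 1.10 ± 0.50), Cacng8 (0.68 ± 0.27) and Cnih2 (0.66 ± 0.28, SE; edgeR adjusted p = 0.372, 0.262 and 0.314). Gria4 had 39.0, 41.7, 65.8 and 49.9 CPM in CA3, against 0, 16.5, 47.5 and 16.3 CPM in DG. The DG library labelled control DG replicate 2 lay within the CA3 range. The 0 belongs to dissociated DG replicate 3, where 3 counts amount to 45.5 CPM, so whether that library lies below CA3 was not resolved. Gria1 was at 0.50, and Gria2 (−0.05), Gria3 (−0.01) and Cacng2 (−0.05) were near 0, with 95% intervals of −0.57 to 0.48, −0.72 to 0.70 and −1.01 to 0.91. Cacng3 was at −0.30. Without the 5 libraries led by another region's markers, CA3 was left with 1 library, dissociated replicate 4, assumed to vary like the other groups. Gria4 was then at 1.52, Cnih2 at 0.83 and Cacng8 at 0.07, and again none was called.

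Between CA1 and CA3 none of the 8 was called by edgeR, DESeq2 or limma, and none had an unadjusted p under 0.05, where edgeR called 0.115% of all tested genes. The log2 fold changes ran from −0.60 ± 0.42 for Gria4 to 0.69 ± 0.34 for Cacng3 (SE). Gria3 was at 0.57 ± 0.31, Gria2 at 0.36 ± 0.23 and Cacng8 at 0.30 ± 0.24 (SE). Gria1 and Cnih2 were both at 0.22 and Cacng2 at −0.28. Since 3 of 4 libraries labelled CA3 were led by CA1 markers, a difference between these fields and the contents of the libraries cannot be told apart. Without the 5 libraries, Cacng3 was at 2.37 ± 0.61 and Gria3 at 1.80 ± 0.53 (SE, edgeR adjusted p = 0.0782 and 0.145), again against 1 CA3 library.

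**Figure D4:**
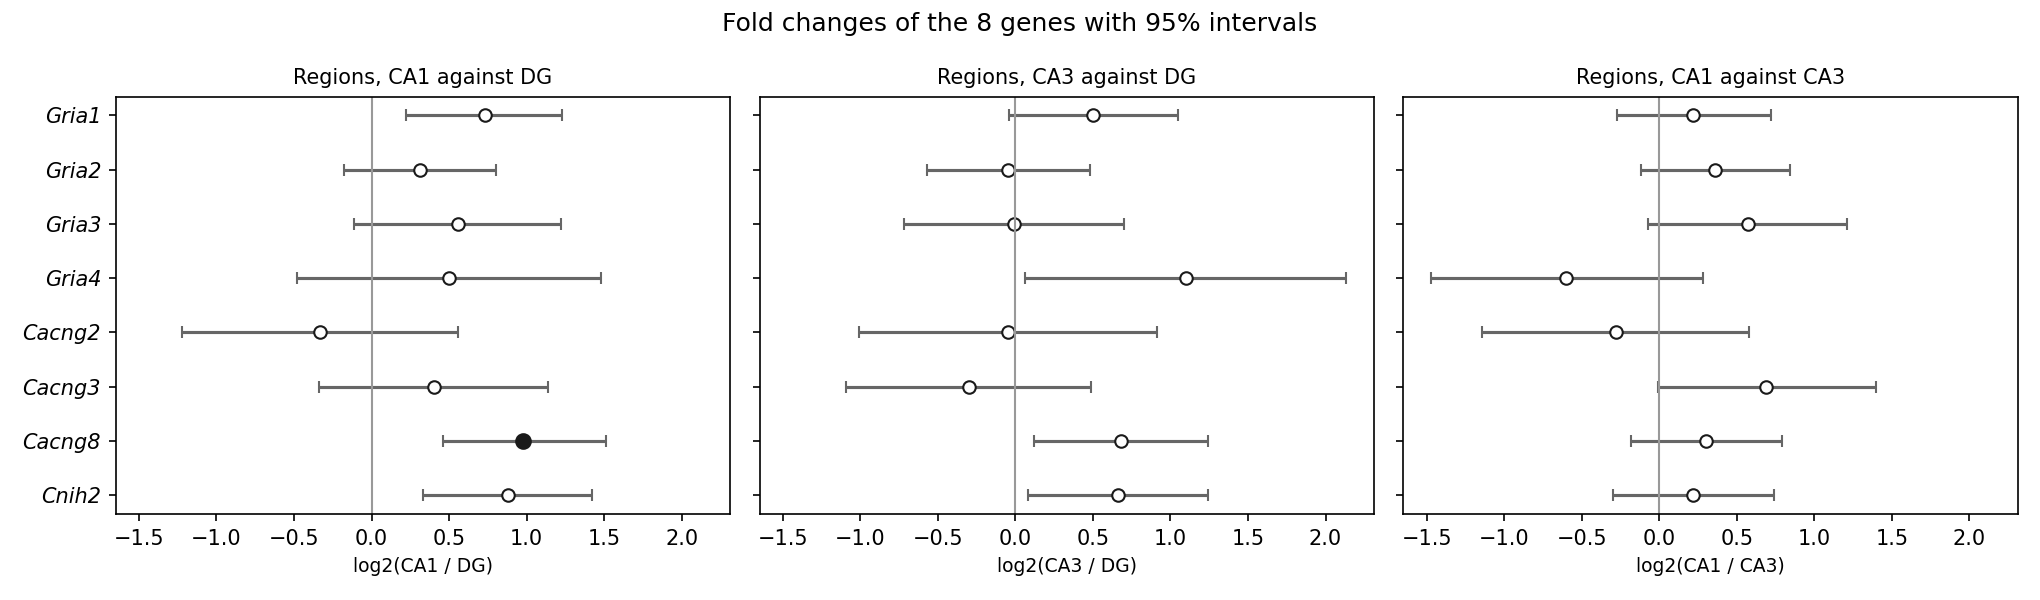
Log2 fold changes between regions (x axis; CA1 over DG, CA3 over DG, CA1 over CA3) for the 8 genes (rows), with treatment in the model; bars are 95% intervals from edgeR, the filled circle is called at an adjusted p under 0.05 and open circles are not. The only filled circle is Cacng8 in CA1 over DG, at 0.98.

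Flip and flop usage was read from the transcript tables for the subunit genes. Gria1 had 1 main flop transcript (Gria1-005) and 2 flip transcripts (Gria1-004 and Gria1-006), and Gria2 had 1 coding transcript with each exon. The flip share is the TPM of flip transcripts as a percentage of flip plus flop, and transcripts with both exons or neither were left out. For Gria1 it was 31.7, 60.4 and 91.2% in dissociated CA1, against 33.3, 26.3 and 30.6% in control CA1. It was 26.6 and 50.9% in dissociated CA3 and 30.7 and 29.8% in control CA3, and 100% and 43.8% in dissociated DG and 68.0 and 29.3% in control DG. The treatments thus overlapped in every region, with the wide values in dissociated libraries and in 1 control library.

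The Gria1 shares were set beside the number of counts behind them, divided at a limit set after the values were seen. In the 8 libraries with at least 2000 estimated counts on Gria1 flip and flop transcripts (2 dissociated, 6 control) the flip share lay within 26.3 and 33.3%, in all 3 regions. In the 6 libraries with fewer (5 dissociated, 1 control) it lay within 43.8 and 100%, so depth and treatment cannot be told apart here. Among these 6, the share of 68.0% rested on 1343 counts, that of 50.9% on 762 and that of 43.8% on 579. The share of 100% rested on 30 counts, that of 91.2% on 305 and that of 60.4% on 171. All 30 were assigned to Gria1-006, which took at most 2.02% of Gria1 TPM in any other library. The exon itself is 115 bases of transcripts of 5399 (Gria1-005) and 5546 bases (Gria1-004), which have 5284 bases in common, with 115 bases only in Gria1-005 and 262 only in Gria1-004. The part of depth in the shares was not tested.

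Gria2 showed the reverse order, with flip above flop. Its flip share was 75.5, 77.4 and 50.9% in dissociated CA1, against 73.8, 76.9 and 79.5% in control CA1. It was 69.1 and 53.4% in dissociated CA3 and 75.3 and 71.6% in control CA3, and 77.4 and 77.2% in dissociated DG and 70.9 and 71.7% in control DG. In CA3 the dissociated libraries were lower and in DG they were higher, with no overlap between 2 and 2 libraries in either, while in CA1 they overlapped. These shares rested on 1223 and 291 estimated counts in dissociated and 2006 and 1274 in control CA3, and on 33 and 297 in dissociated and 701 and 5291 in control DG, and they were not tested. In the same 8 deeper libraries it lay within 69.1 and 79.5%. The annotated flop transcript of Gria2 (Gria2-001) is 10371 bases long and the flip transcript (Gria2-002) 4026, with 6460 bases in the flop transcript alone, so this share also depends on how reads of the long end were assigned. A transcript annotated for nonsense-mediated decay (Gria2-003), which holds both exons, took 0 to 75.9% of Gria2 TPM over the 14 libraries, with a mean of 27.5%.

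In Gria3 a decay-annotated transcript with both exons (Gria3-002) took a mean of 53.4% of the TPM. The remaining flip and flop counts of Gria3 and Gria4 were few in most dissociated libraries, and the flip share ran from 2.0 to 100% for Gria3 and from 0 to 100% for Gria4, so it is not read further. None of the 20 tested transcripts of the 8 genes was called by edgeR for treatment, where 0.00394% of 25388 transcripts were called. An unadjusted p under 0.05 was found for 5 of the 20. The highest of these 5 p-values ranked 1857 among all 25388 transcripts, counted from the lowest p. No other tool was run on transcripts. The log2 fold changes of dissociated over control tissue were −0.98 ± 0.25 for Gria2-001, −1.16 ± 0.38 for Gria2-002, −0.49 ± 0.49 for Gria1-004 and −1.23 ± 0.60 for Gria1-005 (SE, edgeR adjusted p from 0.325 to 0.753), beside a median of −0.44 over all transcripts. None was called between CA1 and DG (0.0354% of all transcripts), CA3 and DG (0%) or CA1 and CA3 (0%). An unadjusted p under 0.05 was found for 4, 5 and 1 of the 20. The highest p-value among those ranked 1348, 1392 and 1139 in turn among all transcripts.

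**Figure D5:**
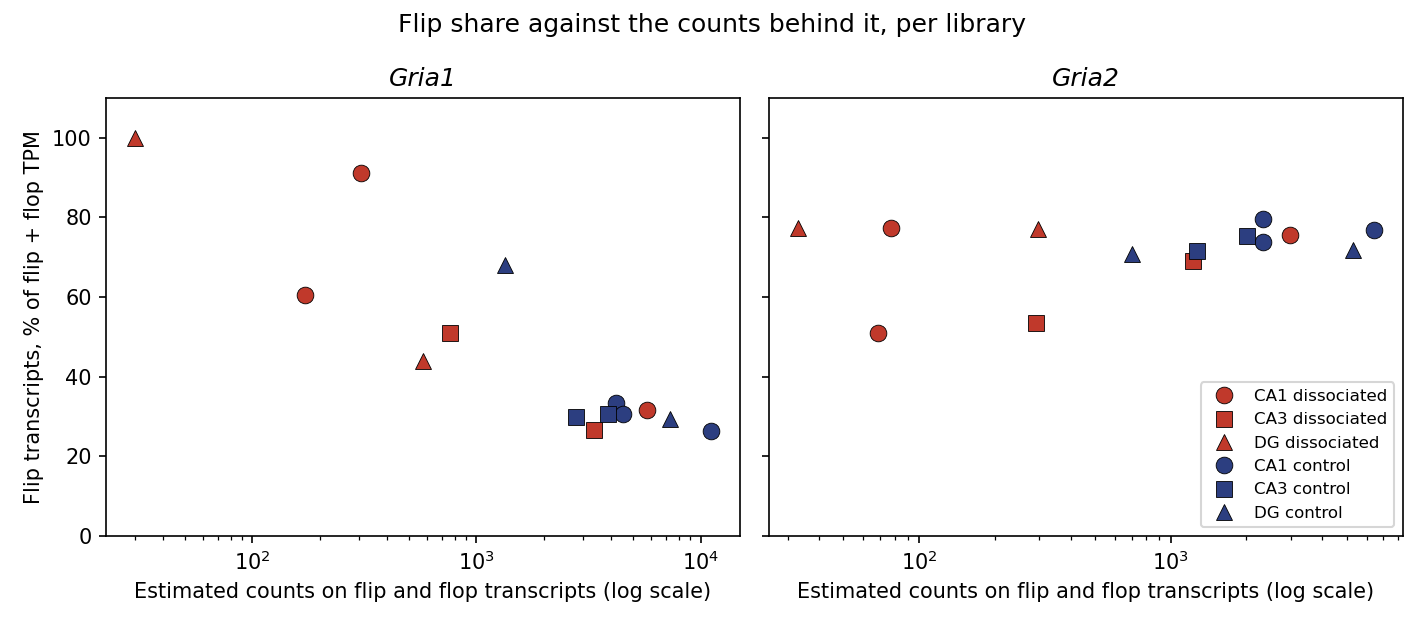
Flip transcripts as a percentage of flip plus flop TPM (y axis) against the estimated counts on those transcripts (x axis, log scale) for Gria1 and Gria2; each point is a library, red for dissociated and blue for control, with the shape giving the region. Gria1 lies within 26.3 and 33.3% in the 8 libraries with at least 2000 counts and within 43.8 and 100% in the other 6. This limit was set after the values were seen, and 5 of those 6 are dissociated.

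Across the 14 libraries the members differed in how alike their patterns were. These correlations of log2 CPM describe libraries that share regions, treatments and differences in depth. Gria1 and Gria3 had a Pearson r of 0.91, Gria2 and Gria3 0.85, Gria1 and Cacng8 0.84, and Gria1 and Gria2 0.81. Cnih2 had 0.00 with Gria2 and 0.36 with Gria1, and Cacng2 had an r of −0.17 to 0.14 with the other members, apart from Cnih2 (0.22) and Gria4 (0.47). Among the 7661 other genes averaging 20 CPM or more, the pattern most like Gria1 was that of Adgrb3 (r = 0.969), followed by Hivep2 and Trim2. The closest to Gria2 was Dclk1 (0.922), to Gria3 Ncoa1 (0.952), to Gria4 Snx1 (0.968), to Cacng8 Brd9 (0.933) and to Cacng3 Kcnj9 (0.929). The closest values were lower for Cnih2 (Pld3, 0.858) and Cacng2 (Mrpl38, 0.847).

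Other genes of the receptor complex were read from a list of 38 auxiliary, trafficking and synapse-organising partners, of which 37 were tested. For treatment none of the 37 was called by edgeR or limma, beside the background of 0.773% in edgeR. An unadjusted p under 0.05 was found in edgeR for 6, and for 1625 of all 13063 genes. DESeq2 called 1 of the 37, and 478 of all genes. Fold changes of the 37 were positive for 12 and negative for 25, with a median of −0.21. Cacng4, a TARP also known from glia, had 29.6 to 105 CPM with a median of 35.5 in dissociated libraries, against 12.8 to 48.2 CPM with a median of 16.9 in control libraries. Its log2 fold change was 1.20 ± 0.35 (SE, edgeR adjusted p = 0.125), and it was called with pan-neuronal scaling (1.41, edgeR adjusted p = 0.0314), with DESeq2 (1.29, DESeq2 adjusted p = 0.0175), with no filter (1.21, edgeR adjusted p = 0.042) and without control DG replicate 2 (1.49, edgeR adjusted p = 0.0249). The related Cacng5 and Cacng7 were at −0.66 ± 0.84 and 0.25 ± 0.23, and the cornichon Cnih1 at −0.12 ± 0.29 (SE).

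Between regions, 3 partners were called lower in CA1 than in DG, where 2.07% of all genes were. Lrrtm4, a leucine-rich synaptic organiser known from granule cells, had 0 to 7.14 CPM in CA1, against 27.8 to 130 CPM in DG (log2 fold change −4.24 ± 0.55 SE, edgeR adjusted p = 0.000101). Shisa9, an auxiliary protein also named CKAMP44 and known from granule cells, had 0 to 37.2 CPM in CA1, against 15.6 to 147 CPM in DG (−2.48 ± 0.46 SE, edgeR adjusted p = 0.0022). Values of 0 came from dissociated CA1 replicate 2 for both genes and replicate 3 for Lrrtm4, where 3 counts amount to 22.2 and 9.97 CPM. Dissociated DG replicate 3 had 31.1 CPM of Lrrtm4 and 15.6 of Shisa9, under the 45.5 CPM of 3 counts there. Lrrtm4 and Shisa9 were called lower in CA3 than in DG too, at −2.84 ± 0.56 and −2.27 ± 0.51 (SE, edgeR adjusted p = 0.00856 and 0.0207), where 0.888% of all genes were called lower. Those CA3 calls were lost without control DG replicate 3 (edgeR adjusted p = 0.198 for Lrrtm4 and 0.146 for Shisa9) and without the 5 libraries led by another region's markers (0.0936 and 0.254). Shisa9 also lost it without dissociated CA3 replicate 1 (0.0926), control CA3 replicate 1 (0.0777), control CA3 replicate 4 (0.0522) or dissociated DG replicate 4 (0.143). In CA1 against DG both calls held with DESeq2 and without the 5 libraries (−4.46 and −2.63). Limma on log2(TPM + 1) called Lrrtm4 and not Shisa9 (limma adjusted p = 0.145), and on log2(TPM + 0.1) it called neither (limma adjusted p = 0.0557 for Lrrtm4 and 0.267 for Shisa9). In CA3 against DG, limma on log2(TPM + 1) called neither (limma adjusted p = 0.233 and 0.46). Between CA1 and CA3 none of the 37 was called by edgeR, DESeq2 or limma, and 4 had an unadjusted p under 0.05 in edgeR.

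Grip2, a PDZ scaffold that binds Gria2 and Gria3 subunits, was called lower in CA1 than in DG (−2.23 ± 0.60 SE, edgeR adjusted p = 0.0365) and higher in dissociated than in control DG (4.05 ± 0.74 SE, edgeR adjusted p = 0.0282). Within DG it was 1 of 37 partners called, where 0.0383% of all genes were called higher. Both calls rested on dissociated DG replicate 3, the shallowest library, where Grip2 had 9994 CPM, against 694 CPM in the other dissociated DG library and 326 and 314 CPM in control DG. Without that library the values were −0.23 for CA1 against DG (edgeR adjusted p = 0.769) and 1.10 within DG (edgeR adjusted p = 0.19). The CA1 call was lost in 8 other fits that left out 1 library (edgeR adjusted p from 0.0513 to 0.131), namely without each of the 6 CA1 libraries and each of the dissociated CA3 libraries in turn. The DG call was also lost without dissociated CA1 replicate 2, control DG replicate 2 or control DG replicate 3 (edgeR adjusted p = 0.0543, 0.153 and 0.0835). Limma on log2(TPM + 1) made neither call (limma adjusted p = 0.368 for CA1 against DG and 0.0849 within DG).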

How the data were processed

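The deposited transcript tables hold estimated counts and TPM from kallisto, per the file headers, and transcript lengths in bases as deposited by the authors. The submitters' processing notes name kallisto, cutadapt, FastQC and DESeq2, without version. The genome build, annotation release and strand setting were not given in the sources used here, and no file header names them. The deposited gene table holds estimated counts per symbol, equal to the summed transcript estimates within a rounding of 0.5. The authors' sample table gave genotype, mouse, job and date.

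Gene counts, already whole, and transcript counts, rounded here, went into edgeR 4.0.16 (R 4.3.3): filterByExpr on the 6 groups (minimum count 10, minimum total 15), TMM, a quasi-likelihood fit of region and treatment on all 14 libraries (10 residual degrees of freedom) or of 1 mean per group (8), and Benjamini-Hochberg adjustment over all 13063 genes or 25388 transcripts, with calls at 0.05. SE and 95% intervals come from the F statistic. DESeq2 1.42.0 and limma 3.58.1 on log2(TPM + 1) or log2(TPM + 0.1) were alternatives, as were other scalings, no filter and libraries left out. The fits were tested on simulated data.

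The 8 genes, the partner list and the marker lists were chosen with earlier results of these data known. Text names all 8 in each comparison, list genes that were called, and up to 4 others in list order. Likeness is the Pearson r of log2 CPM (prior count 2). Flip and flop were told apart by the residues they encode; the rule asked for exons that share no transcript, and decay-annotated transcripts of Gria2 and Gria3 that hold both were set apart after the data were seen. kallisto divides reads among transcripts that share sequence, so isoform values are estimates. Depth is 65887 to 6646655 counts per library, and the 3 counts that a count of 0 allows amount to 0.451 CPM at the highest depth and 45.5 CPM at the lowest. Limits of this kind hold for counting error alone, because without molecular identifiers reads are not independent molecules.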

Additional observations from a re-analysis of the deposited data

Results flagged for a closer look

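The highest and lowest values were tested by the gap to their nearest neighbour in the 7 libraries of each treatment, for CPM of the 8 genes and for the flip share of Gria1 and Gria2, 20 groups in all, and 2 were beyond the critical value of 0.568. Chance flags about 1 in 20 groups. Both belong to the library labelled control DG replicate 2, which had more CA3 than granule cell markers (531 against 449 summed CPM). Its Cacng2 level was 117.69 CPM, with the next control library at 65.5 CPM. Its Gria1 flip share was 68.00%, with the next control library at 33.3%, and it rested on 1343 estimated counts, the fewest of the control libraries. No cause was tested.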

How the results depend on the processing

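Gria2, Gria1, Gria3 and Cacng8 kept a negative sign for treatment over the 3 regions in every alternative run, and the number of the 8 genes called was 0 in the main test, 1 with no filter, 1 with DESeq2 and 0 to 1 when 1 library was left out. For CA1 against DG the number called was 1 in the main test, 3 with no filter, 3 with DESeq2, 2 without the 3 dissociated libraries under 500000 counts, 2 in control libraries only, 0 with pan-neuronal scaling, 0 with limma on log2(TPM + 1) or log2(TPM + 0.1), and 0 to 2 when 1 library was left out. Leaving out the 5 libraries led by another region's markers, an alternative chosen after seeing the data, gave 2 for CA1 against DG and 0 in the other comparisons it was run on. It could not be run within CA3, where no control library remained. Over all genes, edgeR called 101 and DESeq2 478 for treatment, and 530 and 998 for CA1 against DG. For treatment edgeR called 345 of 17386 with no filter and 38 to 254 when 1 library was left out. For CA1 against DG it called 900 of 17386 with no filter, 801 without the shallow libraries and 764 in control libraries only. It called 1071 there with pan-neuronal scaling, 835 without the 5 libraries and 203 to 770 when 1 library was left out. On the 2 TPM scales limma called 164 and 74. With no filter, transcript calls were 3 for treatment, 2 for CA1 against DG and 3 for CA3 against DG, where 0 were called with it; no other alternative moved these counts.

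A replicate block gave 3 of 8 called lower for treatment, Gria2 (−0.89, edgeR adjusted p = 0.00507), Gria1 (−0.73, edgeR adjusted p = 0.0267) and Gria3 (−1.04, edgeR adjusted p = 0.00636), and 2 called for CA1 against DG. Over all genes it raised the treatment calls to 380, against 101 without it, and those for CA1 against DG to 889, against 530. Deviations from group means of samples with the same number had correlations of −0.164 to 0.067 over 13063 genes, none of 6 over 0.1. With 2 libraries per group the deviations mirror each other, so these values are not independent and cannot exclude pairing. The main test did not take the numbers to pair the samples, and whether they do was not settled.

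Signs that reversed belong to values not called in the main test, and those on TPM scales or with pan-neuronal scaling go with a shift of all genes, so they are to be read against it. The median of all genes on the log2(TPM + 1) scale was −0.64 for treatment, −0.59 within CA1, −0.41 within CA3 and −0.77 within DG, against −0.11, −0.06, −0.05 and −0.27 in the main test, and it was 0.17 for CA1 against DG and 0.26 for CA3 against DG. With pan-neuronal scaling it was 0.07 for treatment, −0.5 for CA1 against DG (−0.04 in the main test) and −0.53 for CA3 against DG (0.04 in the main test). On the log2(TPM + 1) scale, with log2(TPM + 0.1) after it where it differs, treatment gave −0.21 and −0.25 for Cacng2, −0.23 for Cnih2 and −0.2 for Cacng7. Within CA1 it gave −0.01 for Cacng2 and −0.08 for Cnih2, within CA3 −0.07 and −0.09 for Cacng2 and −0.26 for Cnih2, and within DG −0.66 and −0.75 for Cacng2. Regions on these scales gave 0.32 and 0.38 for Cacng2 in CA1 against DG, 0.31 and 0.35 for Cacng2, 0.21 for Gria3 and 0.01 and 0.02 for Cacng3 in CA3 against DG, and 0.02 and 0.03 for Cacng2 in CA1 against CA3. With pan-neuronal scaling, treatment gave 0 for Cacng3 and 0.06 for Cnih1, 0.01 for Cacng3 within CA1, and 0.22 for Gria3, 0.1 for Cacng3, 0.14 for Cacng8 and 0.29 for Cnih2 within DG. The same scaling gave −0.24 for Gria2 and −0.01 for Cacng3 in CA1 against DG and −0.08 for Gria1 in CA3 against DG. Without the shallow libraries, Cacng3 was at 0 for treatment and 0.13 within CA1, Cacng2 at −0.03 within CA1, and Gria3 at 0.29 and Cacng3 at 0.09 within DG. Without the 5 libraries, treatment gave 0.08 for Cacng3 over regions and within CA1, 0 for Gria4 within CA1, and 0.04 for Gria3, 0.14 for Cacng3 and 0.02 for Cnih2 within DG. The same fit gave Cacng2 0.26 in CA1 against DG and 1.35 in CA3 against DG, and Gria1 −0.04 in CA3 against DG. In CA3 against DG, Gria2 was at 0.01 and Gria3 at 0.05 with no filter, 0.14 and 0.36 in control libraries only, and Gria3 at 0.02 with upper-quartile factors. Within DG, Gria3 and Cnih2 were at 0.04 and 0.02 with RLE size factors and both at 0.02 with DESeq2.

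With 1 library left out, reversed values ranged, for Cacng2, from −0.52 to 0.36 (CA1 against CA3), −0.6 to 0.32 (CA1 against DG), −0.6 to 0.53 (CA3 against DG), 0 to 0.69 (treatment), −0.89 to 1.52 (within CA3) and −2.23 to 1.46 (within DG). For Cacng3 they ranged from −0.39 to 0.05 within CA1, −1.58 to 0.49 within CA3 and −2.07 to 0.07 within DG, and for Cnih2 from −0.03 to 0.3 within CA3 and −0.33 to 0.01 within DG. Gria2 ranged from −0.16 to 0.12 and Gria3 from −0.24 to 0.46 in CA3 against DG, Gria3 from −1.38 to 0.26 within DG, Gria4 from −0.82 to 0.04 within CA1 and Cnih1 from −0.27 to 0.02 for treatment. Causes of these shifts were not tested. Depth limits the low members most: dissociated DG replicate 3 held 30 counts of Gria1, 33 of Gria2 and 0 or 1 of Gria4, Cacng2 and Cacng3.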
